A study of Mus musculus with 12 samples.

Results

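The baseline difference between the oviduct and the uterus was measured in pregnant mice that had been given the oil vehicle alone. The comparison takes 6 of the 12 microarrays of the study, 3 of oviduct and 3 of uterus from oil-treated mice, chosen by their labels and not by any measured value. All mice of the series were injected under the skin once a day from day 0.5 to day 2.5 of pregnancy with 100 µl of sesame oil and dissected on day 3.5. In the oil mice the oil carried no estradiol (0 µg/kg). In the E2 mice it carried 10 µg/kg of 17β-estradiol (E2), and their 6 arrays give the tissue difference under that treatment. Oviducts and uterine horns were flushed before freezing. The labels give neither strain nor age, nor the number of animals behind an array. They also do not say whether equal replicate numbers in oviduct and uterus stand for the same mouse.

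The oviduct is lined by ciliated cells, whose beating moves the embryo and fluid, and by secretory cells, which make the fluid around it. Both tubes arise from the Müllerian ducts of the fetus, and Hox genes set the position of each segment, with Hoxa9 known for the oviduct, Hoxa10 and Hoxa11 for the uterus and Hoxa13 for the vagina. On the day of collection progesterone from the corpora lutea has made the uterine stroma start dividing ahead of implantation, while the uterine epithelium stops dividing.

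Values are log2 intensities of 19938 genes, on which 1 unit is a 2-fold difference, and a tissue difference is always oviduct minus uterus. With limma fitted over all 12 arrays and a Benjamini-Hochberg adjusted p under 0.05 as the threshold for a call, 7725 genes (38.7% of those tested) differed, 3443 (17.3%) higher in oviduct and 4282 (21.5%) higher in uterus. Uterine calls were more numerous, but large differences lay mostly on the oviduct side. At least 2-fold differences were called for 1008 genes higher in oviduct (5.06%) and 550 higher in uterus (2.76%), at least 8-fold ones for 141 and 14, and at least 32-fold ones for 10 and 0. The median over all genes was -0.04 and the median absolute difference 0.19. Counts of calls in the gene lists below are to be read beside the shares of 17.3% and 21.5%. A list near these shares is no result about its genes. All 3 oviduct arrays lay on one side of all 3 uterus arrays in 9296 genes (46.6%), and 9088 genes (45.6%) had an unadjusted p under 0.05. A gene's level on the array is not a gene's abundance, so no gene is set against another. The highest signal of a Y-linked gene, absent from female tissue, was 7.50 (Sry), or 4.40 without Sry. Where either group mean lies below 7.50, the size of a difference is uncertain and may be understated. These are whole tissues, in which fewer cells of a type and less RNA per cell cannot be told apart.

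The replicate 3 arrays of oil mice stood apart in both tissues. Genes more than 1 log2 unit away from the mean of the other 2 arrays of the group numbered 177 in oil uterus replicate 3 and 302 in oil oviduct replicate 3, against 8 to 62 on each of the other 10 arrays of the series. In a principal component analysis of the 6 oil arrays, tissue lay along the first axis (80.9% of the variance), and the second axis (9.54%) set the replicate 3 arrays (-16.1 and -25.7) apart from the other 4 (5.51 to 16.7). Results that move with these arrays are given below with and without them. Replicates 1 and 2 alone are written as "without both replicate 3 arrays".

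**Figure D1:**
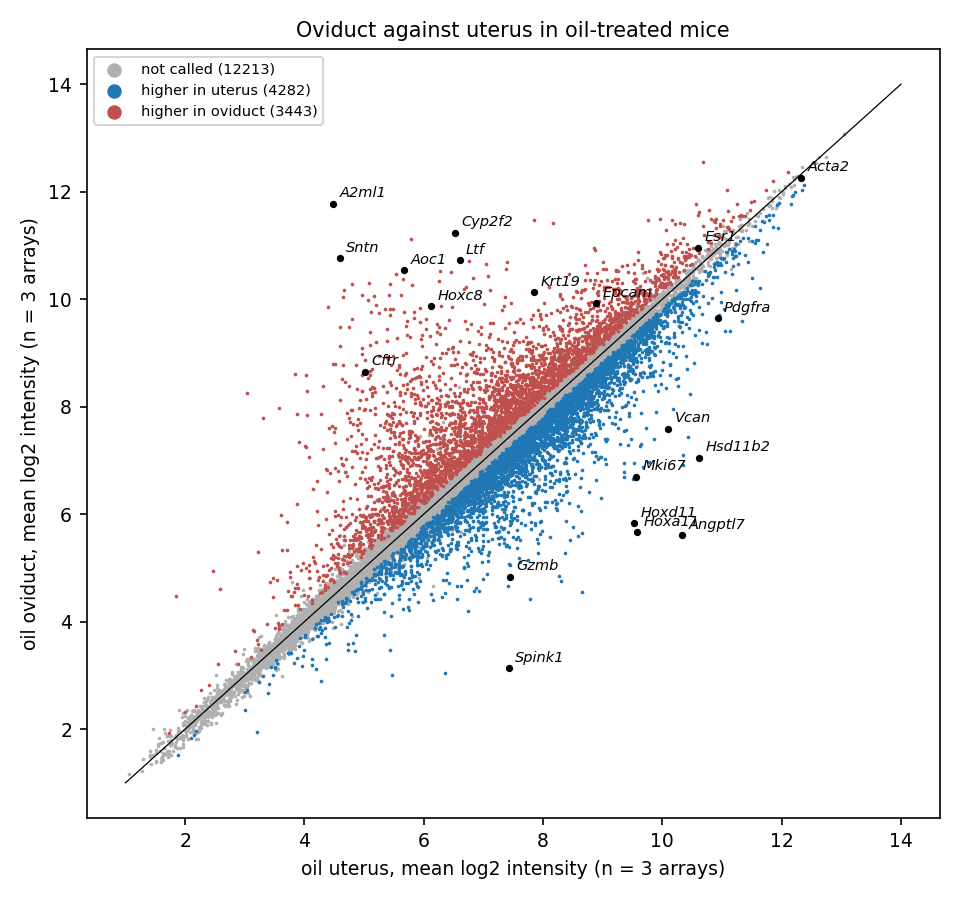
Mean log2 intensity of each of 19938 genes in oil uterus (horizontal axis) and oil oviduct (vertical axis), n = 3 arrays per tissue. Red points are the 3443 genes called higher in oviduct, blue points the 4282 called higher in uterus, and grey points the remaining genes. Black points with names mark genes of the text, and the line marks equal means. Points above the line reach farther from it than points below it, up to a difference of 7.29 for A2ml1.

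Genes of motile cilia, the beating hairs of the oviduct lining, had the highest median difference of the 47 gene lists compared. Of 56 measured genes of the axoneme and its beat machinery, 55 were higher in oviduct and 0 higher in uterus (17.3% and 21.5% of all genes), 53 of them at least 2-fold, with a median difference of 3.00 against -0.04 over all genes and a range of 0.27 to 6.18. The member that was not called was Spag6 (0.27), named after its value was seen, while its near-identical copy Spag6l stood at 4.38, and how signal is shared between these copies is uncertain. The mean over the list was 5.57 to 5.64 on the uterus arrays and 8.54, 8.29 and 9.15 on the oviduct arrays.

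Sntn, the protein of the ciliary tip called sentan, had log2 intensities of 4.74, 4.44 and 4.59 in uterus and of 10.51, 10.31 and 11.49 in oviduct. Its difference was 6.18 (SE 0.23, adjusted p = 6.5e-09). The tissues did not overlap, and replicate 3 was the highest oviduct array. Dnah12, an inner-arm dynein heavy chain that helps to power the beat, measured 4.87, 5.06 and 4.45 in uterus and 10.13, 10.00 and 10.75 in oviduct, a difference of 5.50 (SE 0.21). Rsph4a, of the radial spoke head, measured 4.43, 4.43 and 4.31 against 9.73, 9.49 and 10.32 (5.46, SE 0.18). Both genes were again far apart between tissues, with the highest value on oviduct replicate 3. Cfap206, which anchors radial spokes (5.39, SE 0.18), the axonemal adenylate kinase Ak7 (5.11, SE 0.22) and Cfap44 (4.92, SE 0.24) completed the members with the largest differences.

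Regulators that turn a cell into a multiciliated one differed less evenly. Of 21 measured genes 12 were higher in oviduct and 4 higher in uterus, with a median of 0.52. Foxj1, the master factor of motile cilia, measured 6.44, 6.64 and 6.24 in uterus and 8.10, 7.80 and 9.10 in oviduct, a difference of 1.89 (SE 0.26, adjusted p = 0.00011). Gmnc, which starts the multiciliated programme, measured 4.68, 4.62 and 4.25 against 7.34, 6.86 and 7.77 (2.81, SE 0.20). For both genes every oviduct array lay above every uterus array. Members higher in uterus were Tfdp1 (-0.82), a partner of E2F factors, Plk4 (-0.80), the kinase of centriole duplication, Emid1 (-0.48) and E2f4 (-0.40), named after their values were seen. The part of Emid1 in this programme is uncertain, and it is counted here only as a list member. The arrays of Plk4 overlapped between tissues. Its call ended without oil uterus replicate 1 or 2 or oil oviduct replicate 1 or 2 (-0.80, -0.63, -0.60 and -0.58), and its difference was -1.21 without oil oviduct replicate 3. The ciliary transcription factors Rfx2 (0.86, SE 0.16) and Rfx3 (0.85, SE 0.12), also named afterwards, were called higher in oviduct.

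The genes of centriole amplification, the step in which a cell makes many basal bodies, were displaced on 1 array. Deup1, a scaffold of that step, measured 7.15, 6.71 and 9.23 in oviduct against 5.25 to 5.44 in uterus (2.35, SE 0.48). Ccno, a cyclin-like protein of the same step, measured 6.13, 6.08 and 8.17 against 5.42 to 5.74 (1.26, SE 0.43). Oviduct replicate 3 was thus about 2 log2 units above its group for each, and still no uterus array reached an oviduct array. Without oil oviduct replicate 3 the differences were 1.58 for Deup1 and 0.57 for Ccno, both still called. The call of Ccno ended when oil uterus replicate 1, 2 or 3 was left out (limma adjusted p = 0.058, 0.087 and 0.088). Across the list, 19 of 21 genes were higher in oviduct replicate 3 than in the mean of the other 2 oviduct arrays, by a median of 0.67, and 55 of 56 axoneme genes were, by 0.79. Without both replicate 3 arrays the axoneme counts stayed at 55 and 0 with a median of 2.75, and the regulators stood at 10 and 5 with a median of 0.29.

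Promoters of ciliary genes were searched for the X-box, the sequence that RFX factors bind. The search was chosen after the calls of the list and of Rfx2 and Rfx3 were seen. The part of RFX factors in these differences was not tested. The windows are RefSeq promoters of GRCm38.p6, 250 bases before to 50 bases after a transcript's start, and the table held one for 46 of the 56 axoneme genes. The letters searched were GTNNCC, then any 2 bases, then GGNNAC, an inverted repeat that reads the same on both strands. They occurred in 8 of 53 axoneme promoters (15.1%), in 3 of 23 promoters of the fate regulators, in 0 of 25 promoters of the cell cycle genes described further on and in 1.88% of all 32851 promoters. Grouped by call, a match in at least 1 window was present for 140 of 2720 genes higher in oviduct (5.15%), 11 of 115 at least 8-fold higher (9.57%), 49 of 3340 higher in uterus (1.47%) and 191 of 9554 not called (2.00%). The forkhead pattern GTAAACA was present in 4 of 53 axoneme promoters (7.55%) against 3.65% of all promoters, and for 3.90% of genes higher in oviduct, 11.3% at least 8-fold higher, 3.17% higher in uterus and 3.57% not called. The following 4 promoters, chosen after the matches were seen, show where the letters stand, in capitals and 5′ to 3′ on the gene's strand. They belong to Cfap206 (chr4:34730157-34730456, minus strand), the spoke-region gene Iqca (chr1:90153387-90153686, minus strand), the ciliary gene Pifo (chr3:106001448-106001747, minus strand) and Deup1 (chr9:15627797-15628096, minus strand). Where a gene has 2 windows in the table, as Pifo and Deup1 do, the one with a match is shown.
Cfap206: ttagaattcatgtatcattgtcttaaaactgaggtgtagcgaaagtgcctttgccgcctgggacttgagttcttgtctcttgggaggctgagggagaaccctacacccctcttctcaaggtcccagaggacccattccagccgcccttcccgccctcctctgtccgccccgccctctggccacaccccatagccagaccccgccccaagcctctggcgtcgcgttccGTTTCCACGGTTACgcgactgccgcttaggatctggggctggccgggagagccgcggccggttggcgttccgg
Iqca: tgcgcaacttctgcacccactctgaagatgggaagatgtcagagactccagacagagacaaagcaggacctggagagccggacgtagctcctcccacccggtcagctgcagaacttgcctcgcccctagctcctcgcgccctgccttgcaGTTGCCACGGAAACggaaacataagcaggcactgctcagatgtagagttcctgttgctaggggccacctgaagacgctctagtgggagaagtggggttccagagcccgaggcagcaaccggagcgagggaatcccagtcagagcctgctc
Pifo: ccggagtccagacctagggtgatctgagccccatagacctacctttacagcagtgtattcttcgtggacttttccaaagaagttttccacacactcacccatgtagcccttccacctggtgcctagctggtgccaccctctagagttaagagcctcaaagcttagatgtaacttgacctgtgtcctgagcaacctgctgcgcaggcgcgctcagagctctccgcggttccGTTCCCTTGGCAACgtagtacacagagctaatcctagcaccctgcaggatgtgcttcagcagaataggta
Deup1: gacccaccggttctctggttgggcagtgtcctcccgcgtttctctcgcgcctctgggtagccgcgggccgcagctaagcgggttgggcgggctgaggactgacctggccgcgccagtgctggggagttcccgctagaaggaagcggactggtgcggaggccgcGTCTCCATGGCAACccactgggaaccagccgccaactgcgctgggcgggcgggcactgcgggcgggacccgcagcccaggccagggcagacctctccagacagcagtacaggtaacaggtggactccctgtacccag
Counted from the start site, the match begins at base -23 in Cfap206, -100 in Iqca, -20 in Pifo and -87 in Deup1. The tissue differences of Iqca and Pifo were 3.23 (SE 0.22) and 2.91 (SE 0.24). A match is a description of these letters and not a measured binding site. Genes grouped by call as higher in oviduct include axoneme genes, so their shares are not separate from those of the list.

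The largest oviduct difference of any gene was that of A2ml1, a secreted protease inhibitor of the macroglobulin family. It measured 4.40, 4.70 and 4.35 in uterus and 11.91, 11.87 and 11.56 in oviduct, a difference of 7.29 (SE 0.15, adjusted p = 7.2e-11) or 157-fold. Among the 12 largest were also Fndc7 (5.33, SE 0.07), Stoml3, a stomatin-like membrane protein (5.22, SE 0.16), Agr3, a protein disulfide isomerase of ciliated airway cells (5.21, SE 0.18), Cdhr3, a cadherin-related protein known from ciliated airway cells (4.94, SE 0.19) and Fam216b (5.51, SE 0.21). Agr3 was one of 6 genes above 7.50 on every oviduct array and below 4.40 on every uterus array. The others were Bbox1 (difference 4.08), Fam81b (4.57), Lrrc6 (4.75), Spag17 (3.59) and Zbbx (4.25), with 0 genes showing the opposite pattern. Lrrc6 and Spag17 are known parts of cilia assembly and of the central pair of the axoneme.

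Secretory and epithelial genes were also mostly higher in oviduct. Of 14 markers of oviduct secretory cells 10 were higher in oviduct and 1, the activin-binding Fst, higher in uterus (median 1.03). Pax8, the lineage factor of secretory cells, measured 8.55, 8.34 and 9.01 in uterus and 10.22, 10.21 and 10.00 in oviduct, a difference of 1.51 (SE 0.14, adjusted p = 4.9e-06). Lcn2, a lipocalin that keeps iron from bacteria, measured 7.24, 7.04 and 7.87 against 10.53, 10.42 and 11.14 (3.31, SE 0.21). Neither gene overlapped between tissues. Dcpp1 and Dcpp3, secreted proteins of the oviduct that belong to a family of near-identical copies and are therefore uncertain, differed by 2.32 (SE 0.62) and 2.11 (SE 0.49). Dcpp1 reached 10.34 on oviduct replicate 3 against 7.27 and 7.33 on the others, and stood at 1.31 without that array. Dcpp3 went the other way there, with 5.74 against 8.25 and 8.08.

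General epithelial markers were higher in oviduct for 12 of 14 genes and higher in uterus for 0, with a median of 1.01. The simple-epithelium keratin Krt8 measured 10.30, 10.13 and 10.07 in uterus and 11.36, 11.56 and 11.50 in oviduct, a difference of 1.31 (SE 0.08). The adhesion molecule Epcam measured 8.97, 8.74 and 8.97 against 9.85, 9.98 and 9.97 (1.04, SE 0.07). Their arrays were tightly grouped within each tissue and did not overlap. The keratin Krt19 (2.29, SE 0.12) and the epithelial transcription factors Ehf (2.03, SE 0.09) and Elf3 (1.75, SE 0.15) were larger. The ciliary and secretory lists thus moved together with the general epithelial list (medians 3.00, 1.03 and 1.01), and the part of the epithelial difference in the other lists was not tested.

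Genes of secreted defence and protease control were called on both sides. Of 24 mucosal defence genes 7 (29.2%) were higher in oviduct and 3 (12.5%) in uterus (median 0.08). Of 26 serpins and other protease inhibitors 11 (42.3%) were higher in oviduct and 6 (23.1%) in uterus (median 0.11). Over all genes the shares were 17.3% and 21.5%. Ltf, the iron-binding lactoferrin, measured 6.76, 6.73 and 6.31 in uterus and 10.38, 10.54 and 11.27 in oviduct, a difference of 4.13 (SE 0.19, adjusted p = 2.8e-08), again without overlap. The whey acidic protein family gene Wfdc18 (4.71, SE 0.17), the chaperone clusterin (Clu; 1.47, SE 0.16) and the surface protease inhibitors Spint2 (1.65, SE 0.07) and Spint1 (1.45, SE 0.14) were higher in oviduct. In the uterus the lysozyme Lyz1 (-1.01, SE 0.19) and the trypsin inhibitor Spink1 (-4.29, SE 0.24) were higher. Spink1 measured 7.03, 7.16 and 8.09 in uterus against 3.25, 3.35 and 2.80 in oviduct.

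Fluid transport genes were called on both sides. Of 31 ion channels and transporters 12 (38.7%) were higher in oviduct and 5 (16.1%) in uterus, against 17.3% and 21.5% of all genes (median 0.12). Cftr, the chloride and bicarbonate channel of secretory epithelia, measured 5.26, 4.73 and 5.06 in uterus and 8.77, 8.59 and 8.59 in oviduct, a difference of 3.63 (SE 0.13, adjusted p = 6.5e-09). The calcium-activated potassium channel Kcnn4 (1.41, SE 0.08) went with it, while Clca2 (-2.36, SE 0.09) and Clca3a1 (-1.80, SE 0.18), secreted regulators of chloride currents, and the carbonic anhydrases Car4 (-1.68, SE 0.20) and Car12 (-1.64, SE 0.34) were higher in uterus. Genes of chloride and bicarbonate transport thus passed the test in each direction. Of 9 aquaporins 2 were higher in oviduct (1 without oil oviduct replicate 1 or oil uterus replicate 2) and 1 in uterus, with the water channel Aqp4 at 1.05 (SE 0.10).

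**Figure D2:**
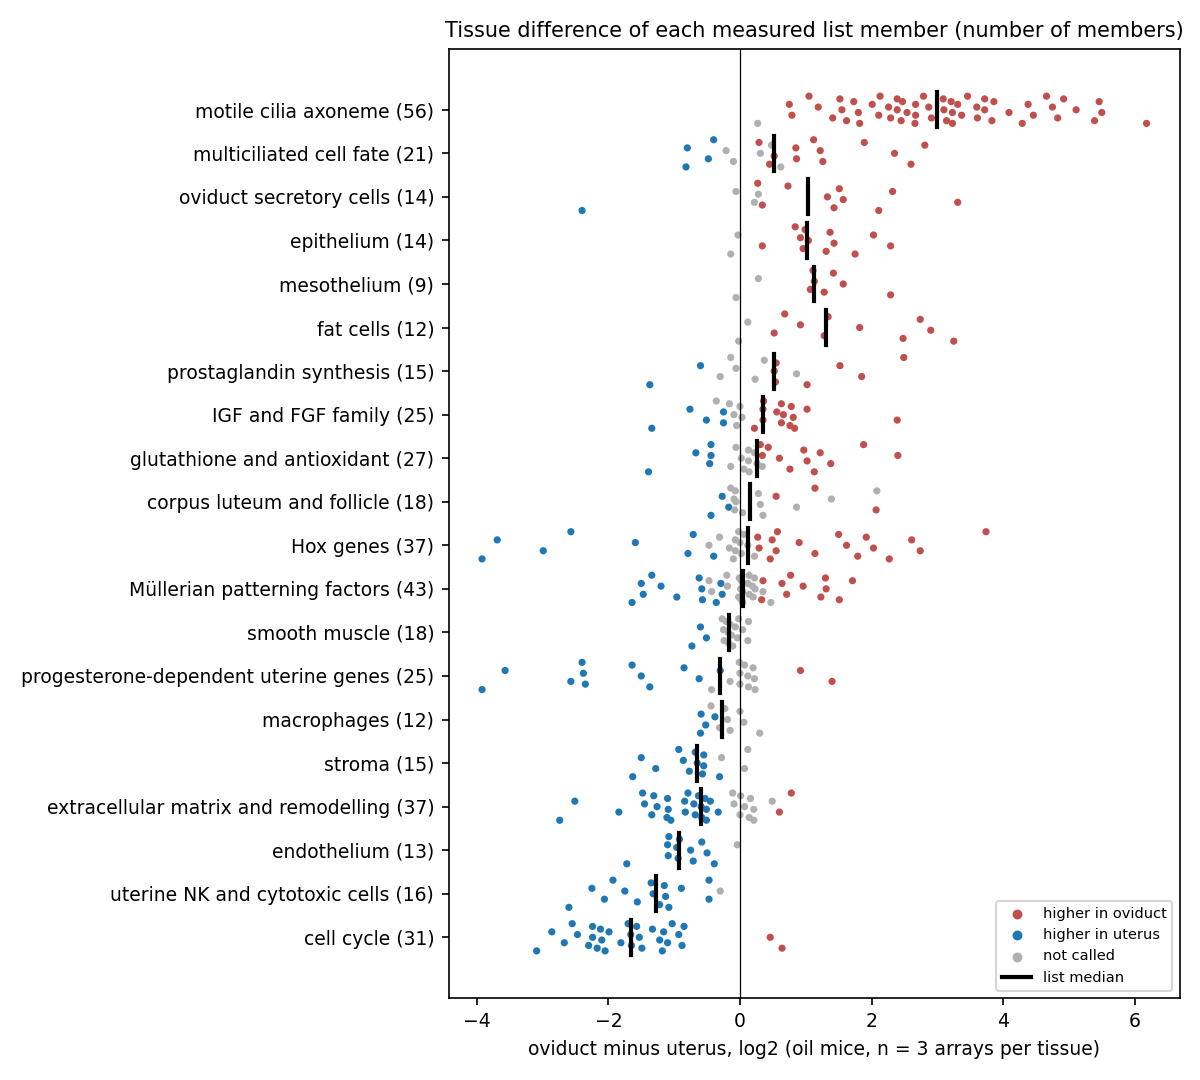
Oviduct minus uterus difference (log2, horizontal axis) of every measured member of 20 gene lists, with the number of members in brackets. Red points are members called higher in oviduct, blue points members called higher in uterus, grey points members not called, and black bars list medians. Vertical scatter within a list carries no meaning. The axoneme list lies farthest to the right (median 3.00) and the cell cycle list farthest to the left (median -1.66).

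Hox genes were called on both sides, and the side differed between clusters and paralog groups. Of 37 measured Hox genes 17 were higher in oviduct and 8 higher in uterus (median 0.12), and the extremes were -3.92 and 3.74. Grouped after the values were seen, paralog groups 1 to 8, the genes known for more anterior positions, had 15 of 21 members higher in oviduct and 2 in uterus, and paralog groups 9 to 13 had 2 of 16 and 6. This pooled split, which was not tested, did not hold in each cluster. In the C cluster groups 9 to 13 had 2 of 5 members higher in oviduct and 0 in uterus, and in the D cluster groups 1 to 8 had 0 of 4 higher in oviduct and 2 in uterus.

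In the A cluster, Hoxa2 (2.03), Hoxa3 (1.92), Hoxa4 (0.55), Hoxa5 (2.74), Hoxa6 (2.61) and Hoxa7 (1.14) were all called higher in oviduct. Hoxa9 was not called in the fit (-0.31, adjusted p = 0.086), with 8.99, 9.00 and 9.18 in uterus and 8.76, 9.02 and 8.47 in oviduct, and the tissues overlapped. Without oil oviduct replicate 2 it was called at -0.44. Hoxa10 measured 9.45, 9.44 and 9.70 in uterus and 6.74, 7.07 and 7.09 in oviduct (-2.57, SE 0.11). Hoxa11 measured 9.56, 9.58 and 9.61 against 5.58, 5.66 and 5.74 (-3.92, SE 0.10, adjusted p = 4.7e-10). These 2 genes thus had wide gaps between tissues and little spread within them. Hoxa13 (-0.16) lay at means of 5.47 and 5.31, below the Y-linked bound of 7.50 in both tissues.

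In the D cluster Hoxd8 (-0.71, SE 0.13), Hoxd9 (-1.59, SE 0.10), Hoxd10 (-2.99, SE 0.15) and Hoxd11 (-3.69, SE 0.13) were higher in uterus. The oviduct means of Hoxd9, Hoxd10 and Hoxd11 (6.44, 7.43 and 5.84) lay below 7.50, so the sizes of their differences are uncertain. Hoxd11 measured 9.39, 9.54 and 9.66 in uterus and 6.07, 5.66 and 5.79 in oviduct. Hoxd4 was also higher in uterus (-0.79, SE 0.10), Hoxd3 was not called (adjusted p = 0.99 by limma), and Hoxd1, Hoxd12 and Hoxd13 were not called (0.06, -0.07 and 0.12), with means under 7.50 in both tissues. In the C cluster the calls lay on the oviduct side, with Hoxc8 measuring 5.95, 5.98 and 6.44 in uterus and 10.08, 9.72 and 9.80 in oviduct (3.74, SE 0.16). Its neighbours Hoxc4, Hoxc5, Hoxc6, Hoxc9 and Hoxc10 were higher in oviduct too, by 0.90 (Hoxc10) to 2.27 (Hoxc6). In the B cluster 5 genes of groups 2 to 7 were higher in oviduct by 0.27 to 0.57, and Hoxb9 was higher in uterus (-0.40). Hoxb7 was not called without oil uterus replicate 3 (0.24) or oil oviduct replicate 2 (0.20). The D cluster had 0 genes higher in oviduct.

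**Figure D3:**
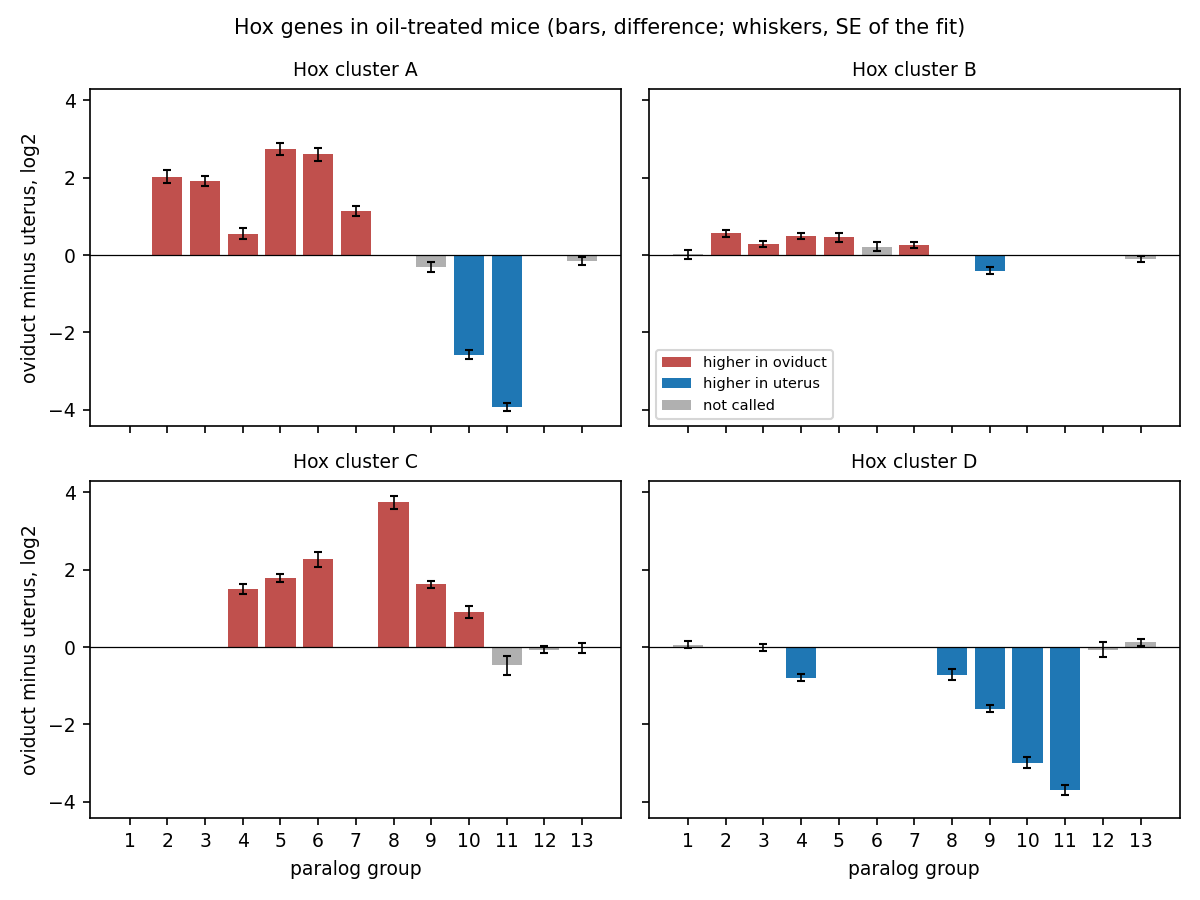
Oviduct minus uterus difference (log2, vertical axis) of each measured Hox gene in oil-treated mice by paralog group (horizontal axis), with a panel for each of the A, B, C and D clusters. Bars give the difference, whiskers the SE of the limma fit (n = 3 arrays per tissue), red bars genes higher in oviduct, blue bars genes higher in uterus and grey bars genes not called. The longest blue bars are those of Hoxa11 (-3.92) and Hoxd11 (-3.69), and the longest red bar is that of Hoxc8 (3.74).

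Other factors that pattern the reproductive tract were split. Of 43 such genes 11 (25.6%) were higher in oviduct and 12 (27.9%) in uterus, against 17.3% and 21.5% of all genes (median 0.04). The T-box factor Tbx2 (1.71, SE 0.08), Pax8 and the paired-box factor Pax2 (0.71, SE 0.09) were higher in oviduct. The homeobox factors Msx1 (-1.64, SE 0.15) and Dlx6 (-1.47, SE 0.13), the progesterone-induced stromal factor Hand2 (-1.50, SE 0.08) and the zinc finger factor Osr1 (-1.34, SE 0.21) were higher in uterus. Emx2, which is needed for the tract's epithelium to form, differed by 0.35 (SE 0.07), and Wnt7a, a patterning signal of uterine epithelium, was not called at 0.47 (SE 0.19). Without oil uterus replicate 3, on which it measured 6.89 against 6.24 and 6.07, Wnt7a was called at 0.71.

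Cell cycle genes were mostly higher in uterus. Of 31 cell cycle genes 29 were higher in uterus, 26 of them at least 2-fold, with a median of -1.66. The remaining 2, both higher in oviduct, were the G1 cyclins Ccnd1 (0.64, SE 0.12) and Ccnd2 (0.46, SE 0.15), named after their values were seen. The arrays of Ccnd2 overlapped, and it was not called without oil oviduct replicate 1, oil oviduct replicate 2 or oil uterus replicate 3 (0.39, 0.34 and 0.39). Mki67, the proliferation antigen Ki-67, measured 9.77, 9.99 and 8.93 in uterus and 6.47, 6.53 and 7.10 in oviduct, a difference of -2.86 (SE 0.27, adjusted p = 6.8e-06). Top2a, the topoisomerase that untangles DNA in mitosis, measured 9.62, 9.75 and 8.70 against 6.29, 6.45 and 7.32 (-2.67, SE 0.30). Bub1, a kinase of the spindle checkpoint, measured 8.67, 8.92 and 7.50 against 4.83, 4.86 and 6.14 (-3.09, SE 0.40). In each case the replicate 3 arrays lay closest together, and the tissues still did not overlap. The mitotic cyclins Ccna2 (-2.55, SE 0.32) and Ccnb2 (-2.47, SE 0.39) behaved alike. Over the list, 28 of 31 genes were lower on uterus replicate 3 than on the other uterus arrays (median -0.74) and 28 were higher on oviduct replicate 3 (median 0.38). Without both replicate 3 arrays the counts were again 29 and 2, with a median of -2.0.

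The promoters of these genes often hold the CHR, the sequence through which the DREAM and MuvB complexes control late cell cycle genes, and the CCAAT box. Searched on both strands, TTTGAA was present in 12 of 25 promoters of the list (48.0%) against 17.9% of all promoters, and in 6 of 53 axoneme promoters (11.3%). CCAAT was present in 21 of 25 (84.0%) against 37.4% of all promoters and 41.5% of axoneme promoters. Grouped by call, TTTGAA was more frequent for genes higher in uterus than for genes higher in oviduct, but less frequent than for genes not called. CCAAT differed little between these groups. TTTGAA was present for 572 of 3340 genes higher in uterus (17.1%), 380 of 2720 higher in oviduct and 1746 of 9554 not called (18.3%), and CCAAT for 41.6%, 42.7% and 41.4%. The E2F pattern TTTCCCGC was present in 2 of 25 promoters of the list against 1.07% of all promoters, and for 3.05% of genes higher in uterus, 1.54% higher in oviduct and 1.37% not called. These 3 letter patterns do not contain one another, and whether single matches overlap was not counted. The table held promoters for 24 of the 31 genes. The promoters of Mki67 (chr7:135716330-135716629), Top2a (chr11:99024140-99024439) and Ccnb2 (chr9:70421505-70421804), each on the minus strand of GRCm38.p6 from RefSeq and chosen after the matches were seen, show TTTGAA or its reverse complement in capitals.
Mki67: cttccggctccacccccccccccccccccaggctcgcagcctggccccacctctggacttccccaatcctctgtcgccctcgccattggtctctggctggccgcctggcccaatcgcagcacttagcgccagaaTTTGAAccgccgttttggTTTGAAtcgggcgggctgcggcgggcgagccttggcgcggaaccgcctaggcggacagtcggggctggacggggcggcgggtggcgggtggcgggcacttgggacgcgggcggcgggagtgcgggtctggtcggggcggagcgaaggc
Top2a: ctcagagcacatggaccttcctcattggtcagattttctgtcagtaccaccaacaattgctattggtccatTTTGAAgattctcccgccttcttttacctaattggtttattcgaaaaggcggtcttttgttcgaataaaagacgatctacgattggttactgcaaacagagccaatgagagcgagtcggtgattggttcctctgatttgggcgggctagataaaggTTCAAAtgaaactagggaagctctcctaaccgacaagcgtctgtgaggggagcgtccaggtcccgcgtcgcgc
Ccnb2: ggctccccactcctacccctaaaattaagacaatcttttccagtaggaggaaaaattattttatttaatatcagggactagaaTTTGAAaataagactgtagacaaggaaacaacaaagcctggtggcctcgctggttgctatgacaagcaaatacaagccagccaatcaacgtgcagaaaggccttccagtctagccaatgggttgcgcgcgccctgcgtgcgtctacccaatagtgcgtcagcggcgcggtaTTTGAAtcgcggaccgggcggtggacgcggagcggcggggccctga
Matches begin at bases -116 and -98 from the start site in Mki67, at -179 and -23 in Top2a, and at -167 and 5 in Ccnb2. Each of these promoters thus holds 2 matches. They were taken by the size of the tissue difference among called genes of the list whose promoter held a match.

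Uterine natural killer cells, the main lymphocytes of the uterus around implantation, had markers that were nearly all higher in uterus. Of 16 NK and cytotoxic genes 15 were higher in uterus and 0 in oviduct, 12 of them at least 2-fold (median -1.27). Gzmb, the killing protease granzyme B, measured 7.74, 8.20 and 6.38 in uterus and 4.72, 4.97 and 4.82 in oviduct, a difference of -2.60 (SE 0.35, adjusted p = 0.0001). Ncr1, the NK receptor NKp46, measured 7.35, 7.28 and 6.02 against 5.09, 4.27 and 4.53 (-2.25, SE 0.30). Uterus replicate 3 was the lowest uterus array for both genes, yet above all oviduct arrays. Il2rb, a receptor chain for interleukins 2 and 15 (-2.06, SE 0.33), Nkg7 (-1.93, SE 0.36) and the transcription factor Eomes (-1.56, SE 0.28) followed. Over the list 14 of 16 genes were lower on uterus replicate 3, by a median of -1.27. Without both replicate 3 arrays 15 genes were again higher in uterus with a median of -1.52, and without oil oviduct replicate 3 alone 13 were.

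Other immune markers differed less. Counts near the shares of all genes (17.3% higher in oviduct and 21.5% in uterus) are no result about a list. Macrophage markers were higher in uterus for 4 of 12 genes and higher in oviduct for 0 (median -0.27, or -0.09 without oil oviduct replicate 3), and the receptor Csf1r stood at 0.00 (SE 0.14). All 12 lay lower on oviduct replicate 3 than on the other oviduct arrays (median -0.56). Of 12 genes of dendritic cells and antigen presentation 1 was higher in oviduct, with 4 without oil oviduct replicate 3, 6 without both replicate 3 arrays, 2 without oil uterus replicate 1 and 0 without oil oviduct replicate 1 or 2 or oil uterus replicate 3. The class II gene H2-Aa measured 10.02, 10.03 and 8.97 in uterus and 10.83, 10.88 and 9.76 in oviduct, so that replicate 3 was about 1 unit lower in each tissue. Its difference was 0.82 (SE 0.31, adjusted p = 0.054), not past the threshold. It was called without oil uterus replicate 1 (0.99), oil uterus replicate 2 (1.00), oil oviduct replicate 3 (1.19) or both replicate 3 arrays (0.83). T cell markers were higher in uterus for 2 of 10 genes, for 1 without oil uterus replicate 3 and for 0 without oil oviduct replicate 3. Of 10 B cell and plasma cell markers 1 was higher in oviduct (2 without oil uterus replicate 3). Of 19 neutrophil and mast cell genes 3 were higher in uterus and 1 in oviduct (2 without oil uterus replicate 3), with Retnlg at -1.83 (SE 0.25) and Ly6g at 1.11 (SE 0.20). Of 17 interferon-stimulated genes 2 were higher in oviduct and 1 in uterus. Without oil oviduct replicate 3 there were 5 higher in oviduct, and without oil oviduct replicate 2 or oil uterus replicate 3 there were 2 higher in uterus. On the replicate 3 arrays 17 of 17 were lower in uterus (median -0.71) and 15 of 17 lower in oviduct (median -0.72).

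**Figure D4:**
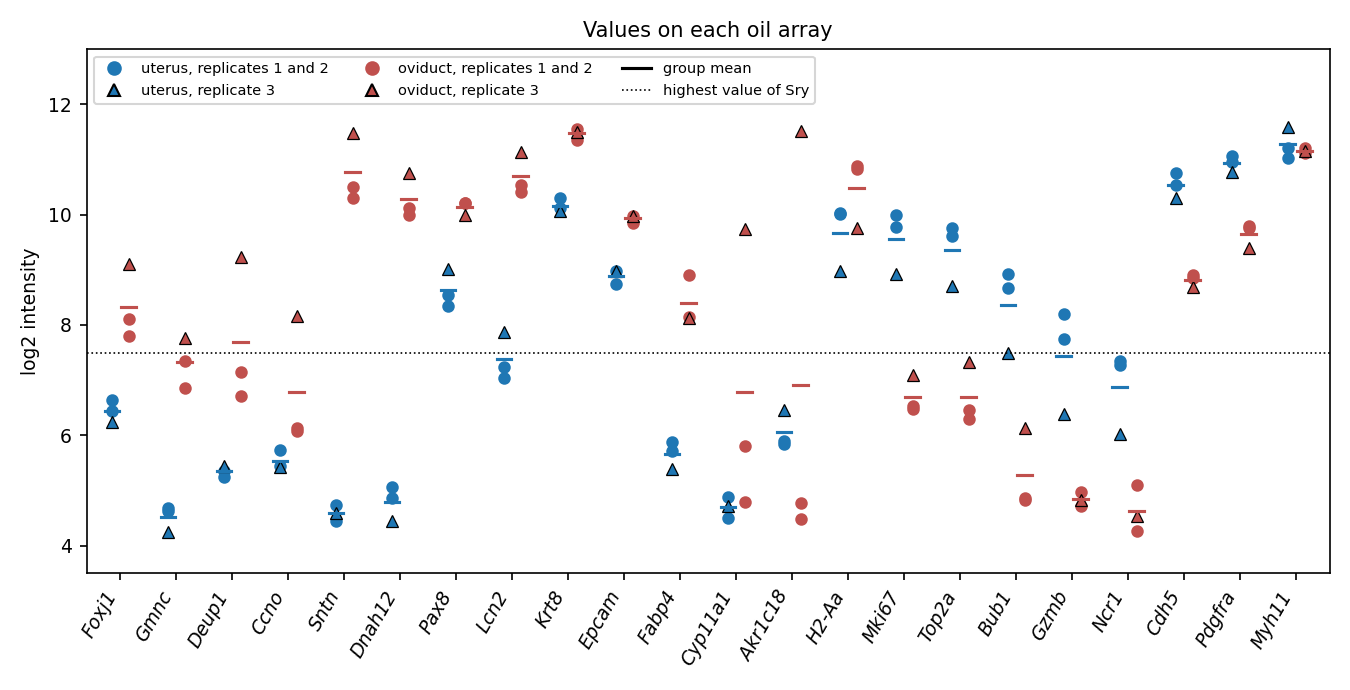
Log2 intensity (vertical axis) of 22 genes on each of the 6 oil arrays. Blue marks are uterus and red marks oviduct, circles are replicates 1 and 2, triangles are replicate 3, short bars are group means and the dotted line is the highest value of the Y-linked gene Sry (7.50). Triangles stand apart for Deup1, Ccno, Cyp11a1 and Akr1c18 in oviduct, for Mki67, Gzmb and Ncr1 in uterus, and for H2-Aa in both.

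Markers of connective tissue and blood vessels were mostly higher in uterus. Of 15 stromal markers 12 were higher in uterus and 0 in oviduct (median -0.65), of 37 matrix and remodelling genes 25 and 2 (median -0.59), and of 13 endothelial markers 12 and 0 (median -0.92). Pdgfra, the growth factor receptor of stromal fibroblasts, measured 10.95, 11.07 and 10.78 in uterus and 9.80, 9.76 and 9.40 in oviduct, a difference of -1.28 (SE 0.11). Cdh5, the cadherin of endothelial junctions, measured 10.53, 10.76 and 10.31 against 8.91, 8.85 and 8.69 (-1.72, SE 0.11, adjusted p = 2.4e-07). For both, the lowest uterus array stood well above the highest oviduct array. The hyaluronan synthase Has2 (-2.74, SE 0.13) and the hyaluronan-binding proteoglycan Vcan (-2.51, SE 0.14) led the matrix genes, followed by the matrix protein tenascin (Tnc; -1.84, SE 0.36) and the protease inhibitor Timp1 (-1.48, SE 0.22). Matrix genes higher in oviduct were Ogn (0.78) and Timp3 (0.60), named after their values were seen, and 4 were higher there without oil oviduct replicate 3. The angiopoietin receptor Tek (-1.08, SE 0.12) and the VEGF receptor Kdr (-1.10, SE 0.10) were among the endothelial genes. Of 6 lymphatic markers 1 was higher in oviduct, Pdpn (1.29, SE 0.22), and 2 in uterus. Lyve1, the hyaluronan receptor of lymphatic vessels, was called higher in oviduct too without oil oviduct replicate 3 (0.36) or both replicate 3 arrays (0.43), against 0.16 in the full fit. Prox1, the master factor of lymphatic vessels, stood at -0.39 (adjusted p = 0.031), and its call ended without oil uterus replicate 1, 2 or 3 or oil oviduct replicate 2 (adjusted p = 0.058, 0.074, 0.072 and 0.12).

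Smooth muscle genes, expressed in the wall of both tubes, were called in few cases. Of 18 genes 3 (16.7%) were higher in uterus and 0 in oviduct (median -0.16), against 21.5% and 17.3% of all genes. The median was -0.27 without oil uterus replicate 2 and -0.02 without oil uterus replicate 3. In E2 mice 10 of the 18 were higher in uterus and 0 in oviduct (median -0.45). For 1 of them the tissue difference itself differed between treatments by the limma test. Acta2, smooth muscle actin, measured 12.27, 12.29 and 12.43 in uterus and 12.31, 12.23 and 12.23 in oviduct, and the arrays of both tissues overlapped (-0.07, SE 0.07, limma adjusted p = 0.43). The myosin heavy chain Myh11 stood at -0.11 (SE 0.12). All 18 genes were higher on uterus replicate 3 than on the other uterus arrays (median 0.48). Of 37 genes of signals on muscle tone 5 were higher in oviduct and 12 in uterus (median -0.09). The endothelin receptor Ednrb (-1.88, SE 0.16) and the prostaglandin E receptor Ptger3 (-1.80, SE 0.16) were higher in uterus. Higher in oviduct were Napepld, an enzyme that makes the endocannabinoid anandamide (1.61, SE 0.11), the potassium channel subunit Kcnmb1 (1.16, SE 0.22) and the oxytocin receptor Oxtr (0.53, SE 0.12). Ano1, the chloride channel of pacemaker interstitial cells, differed by 0.63 (SE 0.09).

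Genes that depend on progesterone in the uterus were called more often on the uterine side. Of 25 progesterone-dependent uterine genes 12 were higher in uterus and 2 in oviduct (median -0.30). Without oil uterus replicate 3 there were 4 higher in oviduct, and without both replicate 3 arrays 5. Hsd11b2, which inactivates glucocorticoids, measured 10.54, 10.63 and 10.67 in uterus and 7.13, 6.88 and 7.13 in oviduct, a difference of -3.57 (SE 0.11, adjusted p = 1.7e-09). Fst, which binds activin (-2.40, SE 0.10), the interleukin 13 decoy receptor Il13ra2 (-2.38, SE 0.30) and Acod1, which makes itaconate (-2.35, SE 0.28), were higher in uterus, and the retinoic acid-degrading Cyp26a1 (1.40, SE 0.35) in oviduct. The receptors themselves differed less, with Esr1, the main estrogen receptor, at 0.36 (SE 0.06, adjusted p = 0.00034), Esr2 at 0.04 (SE 0.08) and the progesterone receptor Pgr at -0.78 (SE 0.15). Pgr measured 9.70, 9.76 and 9.99 in uterus and 9.39, 9.10 and 8.64 in oviduct, and without both replicate 3 arrays its difference was -0.49. Of 19 steroid receptors and converting enzymes 8 were higher in oviduct and 5 in uterus (2 without both replicate 3 arrays). Among them Akr1c14, which reduces steroids (1.74, SE 0.29), Cyp1b1 (1.28, SE 0.27) and Hsd11b1, which regenerates glucocorticoids (1.18, SE 0.23), were higher in oviduct.

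Gland and implantation genes were called on both sides, as were 17.3% (oviduct) and 21.5% (uterus) of all genes. Of 16 endometrial gland genes 5 were higher in each tissue (median -0.01), and of 18 receptivity genes 8 were higher in oviduct and 3 in uterus (median 0.50). The gland chemokine Cxcl15 was higher in uterus (-2.93, SE 0.35), together with Spink1. Aldh1a1, which makes retinoic acid (1.34, SE 0.15), and the gut-type peptide Guca2b (1.32, SE 0.10) were higher in oviduct. Lif, the gland signal that starts implantation, measured 6.31, 5.80 and 7.11 in uterus against 5.38 to 5.46 in oviduct, a difference of -0.98 (SE 0.24) that was -0.63 without oil uterus replicate 3. Its receptor Lifr was higher in oviduct (1.31, SE 0.10).

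The uterine genes with the largest differences were of mixed function. Angptl7, a secreted angiopoietin-like protein, measured 10.29, 10.14 and 10.58 in uterus and 5.39, 5.70 and 5.76 in oviduct, a difference of -4.72 (SE 0.14, adjusted p = 1.7e-09). The glutamate receptor subunit Gria4 (-4.11, SE 0.15), Tex15, a protein known from meiosis (-3.55, SE 0.16), the sulfotransferase Sult1d1 (-3.43, SE 0.41), the transcript Gm32592 (-3.43, SE 0.14), the serine protease Tmprss11g (-3.35, SE 0.27), the cytochrome P450 Cyp3a57 (-3.32, SE 0.27) and Plac8 (-3.23, SE 0.18) followed. All 12 genes with the largest uterine differences, which include Spink1, Hoxa11, Hoxd11 and Hsd11b2, had no overlap between tissues, by the rule that chose them, and the oviduct mean of each lay below 7.50.

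Genes of signals between cells were called on both sides in most pathways. Over all genes 17.3% were higher in oviduct and 21.5% in uterus, so calls on both sides are no result about a pathway. Of 46 Wnt pathway genes 13 were higher in oviduct and 10 in uterus (median 0.02), and 6 were higher in uterus without both replicate 3 arrays. The ligands Wnt2b (1.91, SE 0.18) and Wnt16 (1.22, SE 0.08) were higher in oviduct, and the inhibitor Sfrp2 (-2.23, SE 0.34), the transcription factor Lef1 (-2.03, SE 0.11) and the receptor Fzd2 (-1.33, SE 0.06) in uterus. Of 12 hedgehog genes 5 were higher in uterus and 2 in oviduct, and 3 in uterus without oil oviduct replicate 3, with the hedgehog effectors Gli1 (-1.37, SE 0.11) and Gli3 (-1.19, SE 0.08). Of 33 genes of the TGF-beta and BMP family 13 were higher in uterus and 4 in oviduct (median -0.08). The receptor Bmpr1b measured 5.57, 5.21 and 5.42 in uterus and 8.99, 9.04 and 8.61 in oviduct (3.48, SE 0.15), while the ligands Gdf7 (-2.11, SE 0.10) and Bmp7 (-1.24, SE 0.11) were higher in uterus. The receptor Bmpr1b thus stood on the opposite side from these 2 ligands.

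Growth factor genes of the IGF and FGF families were higher in oviduct for 14 of 25 and in uterus for 5 (median 0.35). Fgf1 (2.39, SE 0.24) and Fgf18 (1.02, SE 0.12) were higher in oviduct and Igf1, a stromal growth factor, in uterus (-1.34, SE 0.11). Of 13 EGF family genes 6 were higher in oviduct and 2 in uterus (median 0.11). The receptors were split, with Egfr at -1.38 (SE 0.08) and Erbb3 and Erbb4 at 1.47 (SE 0.09) and 1.35 (SE 0.12). Of 15 prostaglandin genes 7 were higher in oviduct and 2 in uterus (median 0.52), and 4 in uterus without oil oviduct replicate 3. They included Hpgds, which makes prostaglandin D2 (2.49, SE 0.11), the phospholipase Pla2g5 (1.85, SE 0.10) and the transporter Slco2a1 (1.52, SE 0.08). The phospholipase Pla2g10 was higher in uterus (-1.37, SE 0.15).

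Retinoid genes went both ways, with 8 of 23 higher in oviduct and 6 in uterus (median -0.07). The retinol dehydrogenase Dhrs9 (3.20, SE 0.40) and the retinol-storing Lrat (1.74, SE 0.26) were higher in oviduct, and the retinoic acid-making Aldh1a2 (-2.13, SE 0.15) and the retinol receptor Stra6 (-1.35, SE 0.17) in uterus. Metabolic genes were called more often on the oviduct side. Of 27 glutathione and antioxidant genes 12 were higher in oviduct and 5 in uterus (median 0.26), and of 27 genes of glucose and energy substrates 11 and 4 (median 0.15), or 12 and 7 without both replicate 3 arrays. The median of the glucose list was 0.06 without oil uterus replicate 2 and 0.28 without oil uterus replicate 3. Gclc, which limits glutathione synthesis (1.22, SE 0.07), the glutathione transferases Gsta3 (2.40, SE 0.17) and Gstt2 (1.88, SE 0.10) and the glucose transporter Slc2a1 (1.18, SE 0.09) were higher in oviduct. The glutathione peroxidase Gpx2 was higher in uterus (-1.39, SE 0.14). Of 21 genes of polyamine, histamine and arginine metabolism 9 were higher in oviduct and 6 in uterus (median 0.01). The diamine oxidase Aoc1 measured 5.77, 5.59 and 5.65 in uterus and 10.57, 10.38 and 10.68 in oviduct (4.87, SE 0.16), and the spermidine synthase Srm differed by -1.35 (SE 0.09).

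Markers of fat and of mesothelium, tissues that adjoin the oviduct, were higher in oviduct. Of 12 fat cell markers 10 were higher in oviduct and 0 in uterus (median 1.31), and of 9 mesothelial markers 7 and 0 (median 1.13). The list means were 6.44, 6.30 and 6.02 in uterus and 7.90, 7.55 and 7.81 in oviduct for fat, and 7.31, 6.84 and 7.31 against 8.26, 8.20 and 8.36 for mesothelium. Fabp4, the fatty acid carrier of fat cells, differed by 2.74 (SE 0.56), the adipokine Adipoq by 2.48 (SE 0.53) and the mesothelial uroplakin Upk3b by 1.42 (SE 0.25). Krt19 and the mesothelial adhesion protein mesothelin (Msln; 1.57, SE 0.23), counted above with the epithelial and secretory genes, belong to the mesothelial list too, and the part of mesothelium in their differences was not tested.

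Akr1c18, Cyp11a1 and Star, markers of the corpus luteum, were high on 1 array. Akr1c18, which inactivates progesterone in the ovary, measured 4.48, 4.77 and 11.51 in oviduct and 5.84, 5.90 and 6.46 in uterus. Cyp11a1, the first enzyme of steroid synthesis, measured 5.80, 4.79 and 9.74 against 4.89, 4.50 and 4.71, and the cholesterol carrier Star 6.70, 6.30 and 9.44 against 6.19, 5.84 and 6.25. Oviduct replicate 3 alone was high for these genes, and the list mean was 7.24 on it against 6.32 and 6.07 on the other oviduct arrays and 6.01 to 6.21 in uterus. Over the list of 18, 12 markers were higher and 6 lower on it than on the other oviduct arrays, by a median of only 0.16, so that the mean rests on a few genes. In the fit Akr1c18 (0.86, SE 1.42), Cyp11a1 (2.08, SE 0.90) and Star (1.39, SE 0.60) were not called. Cyp11a1 and Star were called without oil oviduct replicate 2 (3.07 and 1.98). Without oil oviduct replicate 3 Akr1c18 was called on the other side, at -1.44. Of the 18 markers 3 were higher in each tissue (16.7%, against 17.3% in oviduct and 21.5% in uterus over all genes). Those higher in oviduct numbered 6 without oil oviduct replicate 2, 2 without oil oviduct replicate 1 or oil uterus replicate 3, and 1 without oil oviduct replicate 3 or oil uterus replicate 1 or 2. Those higher in uterus numbered 1 without oil oviduct replicate 2, oil uterus replicate 3 or both replicate 3 arrays, and 4 without oil oviduct replicate 3. Of 16 oocyte and embryo markers 1 was higher in oviduct (2 without oil oviduct replicate 3, and 0 without oil uterus replicate 1 or oil oviduct replicate 1 or 2) and 0 in uterus, with Zp3 at 0.14 (SE 0.09) and means of 5.03 and 5.17. The part of luteal RNA in the other values of oviduct replicate 3 was not tested.

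The E2 mice gave the tissue difference under another treatment, on 6 other arrays. Both comparisons came from the same fit and shared its estimate of the spread of each gene. Calls made in both are therefore not independent of one another. In them 6793 genes (34.1%) were called, 3021 (15.2%) higher in oviduct and 3772 (18.9%) higher in uterus. Of the 3443 oviduct-high genes of oil mice 63.7% were called the same way in E2 mice, which is 72.6% of the E2 list, and 161 were called the other way. For the uterus-high genes the shares were 53.3% and 60.5%, with 63 the other way. Across all genes the tissue differences under the 2 treatments correlated at Pearson r = 0.776, over genes that are not independent replicates. Of the 1008 genes at least 2-fold higher in oil oviduct 878 were called the same way and 30 the other way, and of the 550 at least 2-fold higher in oil uterus 358 and 5.

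Most calls of cilia, Hox and NK genes were made in the same direction in E2 mice. Of the oil calls this held for 54 of 55 axoneme genes, 19 of 25 Hox genes and 14 of 15 NK genes. The Hox genes no longer called were Hoxb3, Hoxb4, Hoxb5, Hoxb7, Hoxb9 and Hoxd8, and Hoxc11 was called in E2 mice alone (-0.85, against -0.47 in oil mice). In E2 mice 54 of 56 axoneme genes were higher in oviduct (median 2.65), 13 Hox genes were higher in oviduct and 7 in uterus, and 15 of 16 NK genes were higher in uterus (median -1.93). By the test of the difference between treatments, which called 11.5% of all genes (5.71% with a more oviduct-high and 5.77% with a more uterus-high difference in oil mice), 4 of 56 axoneme genes, 5 of 37 Hox genes and 0 of 16 NK genes had a tissue difference that depended on treatment. Sntn stood at 6.03 in E2 mice, Foxj1 at 1.64, Hoxc8 at 3.79, Hoxa11 at -3.06 and Ncr1 at -2.18. Dnah12 (3.47) and Cfap206 (4.21) were among the axoneme genes with a smaller difference in E2 mice.

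Epithelial and cell cycle differences depended on treatment. The epithelial list, with 12 of 14 genes higher in oil oviduct, had 3 higher in oviduct and 4 in uterus in E2 mice (median -0.03), and 12 of the 14 passed the test of the difference. Krt8 went from 1.31 to -0.11 and Epcam from 1.04 to -0.09. The cell cycle list had 11 genes higher in uterus in E2 mice (median -0.50), and 20 of 31 passed the test of the difference, with Mki67 at -1.49 and Top2a at -0.90. Of the 10 secretory cell markers higher in oil oviduct, 5 were called the same way in E2 mice. The secretory list of 14 had 6 genes higher in oviduct and 6 in uterus there (median 0.20). By the test of the difference, 6 of its genes were more oviduct-high in oil mice and 3 more uterus-high. Among progesterone-dependent genes 12 of 25 had a more uterus-high difference in oil mice and 2 the opposite. Without E2 uterus replicate 1 or E2 oviduct replicate 3, the genes with a more uterus-high difference in oil mice numbered 760 or 729, against 1150 in the full fit.

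Single genes changed sides. Aoc1 was 4.87 higher in oviduct in oil mice and stood at -0.73 in E2 mice, Ltf went from 4.13 to -1.10, Lcn2 from 3.31 to -0.86 and the fatty acid transporter Slc27a2 from 1.46 to -2.12, each called in both directions. Gabrp, a GABA receptor subunit of epithelia, measured 5.54, 5.55 and 5.21 in oil uterus and 10.04, 9.99 and 10.80 in oil oviduct (4.84, SE 0.18), and its difference in E2 mice was -0.29. The cytochrome P450 Cyp2f2 kept a smaller oviduct excess (4.71 and 1.37). In the other direction the endocytic receptor Lrp2 went from -0.85 to 2.61 and the secreted ligand Ndp from -0.97 to 1.98. The oil difference of Lrp2 was not called without oil uterus replicate 1 (-0.69, adjusted p = 0.053), and was -0.54 without oil oviduct replicate 3. The uterine excess of Spink1 (-4.29), Angptl7 (-4.72) and Gm32592 (-3.43) shrank to -0.42, -1.16 and 0.15. These genes were picked for the size of this dependence, so their values are a description.

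**Figure D5:**
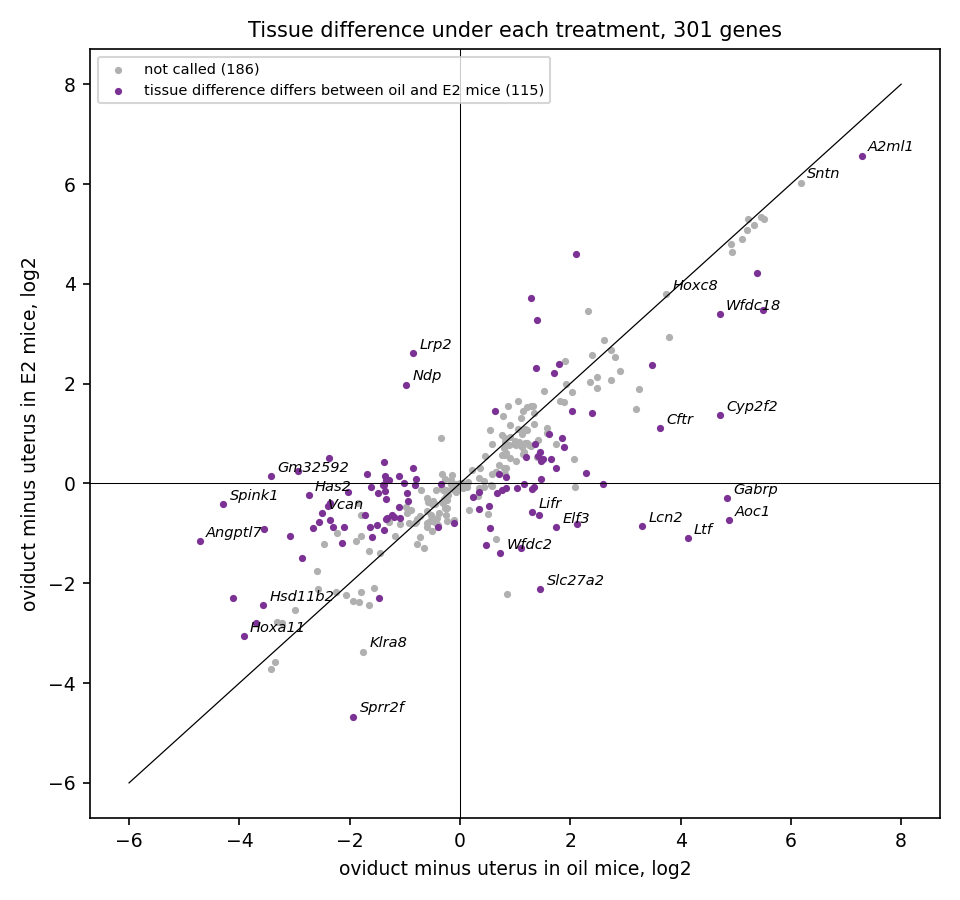
Oviduct minus uterus difference in oil mice (horizontal axis, log2) and in E2 mice (vertical axis, log2) of the 301 genes taken by the rule for named genes, n = 3 arrays per tissue and treatment. Purple points are the 115 genes whose tissue difference passed the test of the difference between treatments, some of them picked by that test, and grey points the other 186. The line marks equal differences. Sntn and Hoxc8 lie near the line, and Aoc1, Ltf, Lcn2 and Gabrp far below it.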

How the data were processed

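Total RNA of 12 tissue samples (flushed oviduct or uterus, 3 arrays per tissue and treatment) was labelled and hybridised to Affymetrix gene arrays. The authors deposited 1 intensity per probe set and array, processed with RMA per the submitters' processing notes; its version and settings were not given in the sources used here. Intensities were deposited on a linear scale (array medians 89.5 to 92.9 over 35556 probe sets, maxima up to 9950), and were transformed to log2 here from the authors' values. RMA makes array distributions alike, which can hide a shift shared by all genes.

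Of the probe sets, 21789 have 1 gene symbol in the platform annotation, 1621 several and 12146 none listed; those with 1 symbol gave 19938 genes, where the brightest probe set on average over 12 arrays stood for the gene. 999 genes had more than 1 probe set. limma 3.58.1 (R 4.3.3) was fitted to 4 group means (lmFit, eBayes; two-sided tests), and a call needed a Benjamini-Hochberg adjusted p under 0.05, taken over all genes; 3 arrays against 3 limit its precision, and p-values measure the spread between these samples. Labels call replicates biological without naming animals. The script was checked on simulated data. Genes were named by a rule: up to 12 in each direction by size of difference with no overlap between arrays, up to 6 called members of each list, all HoxA and HoxD genes, tissue markers and receptors, and the genes with the largest treatment dependence. Some genes were named after their values were seen: Spag6, Spag6l, Tfdp1, Plk4, Emid1, E2f4, Rfx2, Rfx3, Iqca, Pifo, Ccnd1, Ccnd2, Ogn, Timp3, the HoxB and HoxC genes and the genes high only on oviduct arrays. Of 983 listed genes 897 were measured and 86 are not analysed here. The lists were chosen with earlier results of these data known, so they are described by counts and medians, with no test of a list. Genes in several lists count in each. Alternatives were the arrays in the fit, a replicate block, intensity filters, the choice of probe set, scaling, array weights, a variance trend, a minimum fold and each array left out. Promoters were read from a RefSeq table of GRCm38.p6.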

Additional observations from a re-analysis of the deposited data

Results flagged for a closer look

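Of the 214 genes named here, 94 had a tissue difference that itself differed between oil and E2 mice by limma (Benjamini-Hochberg adjusted p under 0.05 over all 19938 genes). The oviduct minus uterus difference was more to the oviduct side in oil mice in 43 of them and more to the uterus side in 51. Each value below is the difference in oil mice minus that in E2 mice, in log2 units, from 3 arrays per tissue and treatment. The words more oviduct-high and more uterus-high name this shift and not the side on which a gene lies. Ccnd2, Dcpp3, Cyp1b1, Cyp26a1, Tbx2 and Ano1, listed as more uterus-high, were higher in oviduct in oil mice. Dlx6, listed as more oviduct-high, was higher in uterus in them. Over all genes the test called 11.5%, and many of the named genes were chosen for large values, so the share among them is no result.

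Cilia and fate genes that were more oviduct-high in oil mice included Dnah12 (2.03) and Cfap206 (1.19). Tfdp1 (-0.54) was more uterus-high. Secreted and epithelial genes that were more oviduct-high in oil mice included Ltf (5.23), Lcn2 (4.17), Elf3 (2.64), Krt19 (2.08), Krt8 (1.42), Wfdc18 (1.32), Spint2 (1.17), Epcam (1.13), Clu (1.02), Pax8 (1.02), Spint1 (0.81), A2ml1 (0.73) and Ehf (0.58). Spink1 (-3.87), Dcpp3 (-2.49) and Lyz1 (-1.01) were more uterus-high. Channels, transporters and receptors of epithelia that were more oviduct-high in oil mice included Gabrp (5.13), Slc27a2 (3.58), Cftr (2.52) and Kcnn4 (0.85). Lrp2 (-3.46), Car4 (-1.87), Clca2 (-1.63) and Ano1 (-0.83) were more uterus-high. Patterning genes that were more oviduct-high in oil mice included Wnt7a (1.71), Dlx6 (0.82), Hoxb5 (0.58), Hoxb4 (0.50), Pax2 (0.52) and Emx2 (0.52). Osr1 (-1.40), Hoxd11 (-0.89), Hoxa11 (-0.87), Hand2 (-0.67), Hoxd9 (-0.51) and Tbx2 (-0.49) were more uterus-high. Cell cycle genes that were more uterus-high in oil mice were Bub1 (-2.03), Ccna2 (-1.78), Top2a (-1.77), Mki67 (-1.37) and Ccnd2 (-0.86).

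Genes of matrix, vessels, complement and white blood cells that were more oviduct-high in oil mice included Cfi (2.94), Ly6g (2.41), C2 (0.91), Cd55 (0.86) and Ogn (0.49). Has2 (-2.51), Vcan (-1.92), Timp1 (-1.29), Cdh5 (-1.09) and Kdr (-0.61) were more uterus-high. Genes of steroid action, glands and muscle tone that were more oviduct-high in oil mice included Lifr (1.89), Akr1c14 (1.43), Oxtr (0.99) and Napepld (0.62). Cxcl15 (-3.17), Il13ra2 (-2.89), Cyp1b1 (-2.44), Fst (-1.95), Acod1 (-1.95), Cyp26a1 (-1.87) and Hsd11b2 (-1.13) were more uterus-high. Signalling genes that were more oviduct-high in oil mice included Erbb4 (1.43), Erbb3 (1.38) and Bmpr1b (1.11). Ndp (-2.95), Lef1 (-1.86), Gli1 (-1.80), Gdf7 (-1.24), Igf1 (-1.02), Fzd2 (-0.63), Bmp7 (-0.60), Gli3 (-0.51) and Egfr (-0.44) were more uterus-high. Metabolic genes that were more oviduct-high in oil mice included Aoc1 (5.60), Cyp2f2 (3.34), Gstt2 (1.15), Gsta3 (0.99) and Pla2g5 (0.93). Stra6 (-1.51), Gpx2 (-1.35), Pla2g10 (-1.34), Gamt (-1.34), Asl (-1.25), Srm (-1.19) and Aldh1a2 (-0.94) were more uterus-high. The remaining genes included Dsg3 (0.72), more oviduct-high in oil mice. Gm32592 (-3.58), Angptl7 (-3.56), Tex15 (-2.64) and Gria4 (-1.82) were more uterus-high.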

How the results depend on the processing

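Differences that pass the test with no requirement on size depend on the threshold more than on the model. The counts of 3443 and 4282 genes became 1867 and 1624 when a difference had to exceed 1.2-fold, and 1997 and 2516 (434 and 198 at 2-fold) among the 7632 genes with a mean above Sry, where fewer genes were tested. Calls higher in oviduct were 44.6% of all calls, 38.7% with arrays centred on their median, 39.6% after quantile normalization, 37.8% with it within each tissue and 53.5% with the 1.2-fold threshold. These scalings moved the all-gene median to at most -0.08 from -0.04. With only the 6 oil arrays in the fit the counts were 2880 and 3386 (990 and 539 at 2-fold). In that fit Dcpp1, Ccno, Ccnd2, Lrp2, Plk4 and Hoxb7 were not called (limma adjusted p = 0.062, 0.12, 0.083, 0.058, 0.13 and 0.053).

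With genes above the Sry mean, and so fewer members, list medians were 3.61 for the axoneme, 0.73 for secretory cells, 0.29 for Hox genes, -0.16 for Müllerian factors, 0.77 for gland genes, -0.31 for muscle tone, 0.15 for pacemaker cells, 0.16 for lymphatic vessels, 1.47 for nerve, 1.91 for fat, 0.24 for neutrophils and mast cells, 0.71 for mucosal defence, 0.46 for ion channels, 0.01 for hedgehog, -0.32 for TGF-beta and BMP, 0.84 for EGF, -1.93 for cornified genes and 0.42 for polyamine genes. Other settings moved the median of steroid enzymes to 0.20 (mean above the Y-linked genes other than Sry), of gland genes to -0.33 (most variable probe set), of glutathione genes to 0.23 (arrays centred), of EGF genes to 0.06 (quantile normalization, also within tissues), and of Müllerian factors and serpins to 0.10 and 0.22 (array weights). The cause of these shifts was not tested.

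With 1 array left out, or both replicate 3 arrays, list medians ranged from 0.20 to 0.32 for glutathione, 0.01 to 0.23 for EGF, -0.20 to -0.07 for neutrophils and mast cells (-0.04 without both), 0.00 to 0.13 for polyamine genes, -0.17 to -0.03 for TGF-beta and BMP, 0.85 to 1.14 for secretory cells, -0.03 to 0.10 for Müllerian factors, 0.12 to 0.21 for ion channels, -0.11 to 0.13 for aquaporins, 0.04 to 0.23 for serpins, 0.28 to 0.70 for cell fate regulators, 0.06 to 0.17 for Hox genes, -0.06 to 0.01 for gland genes, -0.12 to -0.03 for muscle tone, -0.09 to -0.02 for retinoid genes, -0.03 to 0.06 for Wnt genes, -0.10 to 0.02 for complement, -0.04 to 0.08 for cornified genes and -0.03 to 0.12 for nerve. Without any 1 array the genes with a more uterus-high difference in oil mice numbered 729 to 1228, and 1372 without both replicate 3 arrays. Akr1c18 ranged from -1.44 to 2.08 with 1 array left out and turned to -1.44 without oil oviduct replicate 3.

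The labels do not say whether equal replicate numbers mark pairs, and arrays were not treated as pairs. Deviations of same-numbered oviduct and uterus arrays correlated at 0.00454, 0.0472 and 0.262 in oil mice and at 0.263, 0.0264 and 0.0336 in E2 mice. Replicate 3 of oil mice and replicate 1 of E2 mice correlated best with their own number in both tissues, and replicates 1 and 2 of oil mice with the other number. With the number as a replicate block the counts were 3489 and 4311 over 12 arrays, 2842 and 3199 over the 6 oil arrays, and 3604 and 4512 as a random block. Among the genes of the text the block changed 6 calls. H2-Aa was called in all 3 of these fits (limma adjusted p = 6.6e-05, 0.0015 and 0.034 in the same order), Plk4 was not called in either fixed fit (0.088 and 0.17), and Ccno, Hoxb3, Hoxb5 and Hoxb7 were not called over the 6 oil arrays (0.096, 0.058, 0.059 and 0.056).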

Other observations

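Single members of further gene lists were also called between oil oviduct and oil uterus, with no test of a list. Over all genes 17.3% were higher in oviduct and 21.5% in uterus, and list shares near these are no result. Of 17 complement genes 4 were higher in oviduct and 3 in uterus (median -0.05). Cfi, the protease that inactivates complement fragments, measured 5.96, 5.88 and 4.79 in uterus and 8.10, 8.31 and 6.60 in oviduct (2.12, SE 0.40). Both replicate 3 arrays were more than 1 unit below the others of their tissue, and the tissues did not overlap. The complement protease C2 (0.77, SE 0.12) and the membrane protector Cd55 (0.67, SE 0.09) were higher in oviduct too, and C5ar1, the receptor of the C5a fragment, in uterus (-0.49, SE 0.12).

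Creatine and arginine enzymes stood on different sides. Gatm, which makes the creatine precursor guanidinoacetate from arginine, measured 8.88, 8.99 and 9.43 in uterus and 10.28, 10.14 and 10.24 in oviduct (1.12, SE 0.13). Gamt, which carries out the next step, measured 8.71, 8.61 and 8.79 against 7.52, 7.32 and 7.43 (-1.28, SE 0.08). The 2 enzymes of this short pathway thus differed in opposite directions, each without overlap. The arginine-making Asl was higher in uterus (-1.11, SE 0.10) and the histamine methyltransferase Hnmt in oviduct (0.99, SE 0.10). Of the glucose genes, the bisphosphatase Fbp2 (1.06, SE 0.15) and the lactate dehydrogenase subunit Ldhb (0.76, SE 0.06) were higher in oviduct.

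Of 24 cornified envelope and keratin genes 3 were higher in oviduct and 4 in uterus (median 0.03). Without both replicate 3 arrays 1 was higher in uterus, and without oil uterus replicate 2 there was 1 higher in oviduct. The keratin Krt23 measured 7.33, 7.0 and 8.56 in uterus and 5.88, 5.78 and 5.86 in oviduct (-1.79, SE 0.29), and the desmosomal cadherin Dsg3 differed by 0.84 (SE 0.12). Of 10 pacemaker genes 2 were higher in oviduct and 3 in uterus, with the transcription factor Etv1 at 0.90 (SE 0.11) and the gap junction protein Gjc1 at -0.96 (SE 0.08). Oviduct-high members numbered 3 without oil uterus replicate 3 and 4 without both replicate 3 arrays. Of 11 nerve and glia markers 4 were higher in oviduct and 0 in uterus, or 1 in uterus without oil uterus replicate 2 (median 0.02), with S100b, a marker of Schwann cells that fat also expresses, at 0.90 (SE 0.15). Of 7 Y-linked genes 0 were called, a comparison between tissues that could not show male tissue present alike in both.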
